A study of Homo sapiens with 9 samples.

Results

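The U2 and 3′ splice site factors described here are 10 protein-coding genes, U2AF1, U2AF2, SF1, SF3B1, SF3A1, SF3A2, SF3A3, PUF60, RBM17 and ZRSR2, of 20033 protein-coding genes in the annotation. They were taken as a named set, and a peak belonged to one of them when its summit, the position of the highest signal, lay inside the gene or within 1000 bp of the start of one of its transcripts. All 10 symbols were found once in GENCODE version 44. Occupancy of POLR2A, the largest RNA polymerase II subunit, was mapped by ChIP-seq (sequencing of DNA recovered with an antibody from fixed chromatin) in HEK293T, a human embryonic kidney cell line that carries the SV40 large T antigen. The 9 samples made up 3 conditions, each with 2 ChIP replicates and 1 input: a control titled shCtrl with the genotype wildtype, a U2AF1 knockdown and a DHX9 knockdown. DHX9 is a helicase that unwinds RNA and DNA structures, R-loops among them. The knockdown lists are labelled shU2AF1 and shDHX9, with the sh prefix of shCtrl that commonly stands for short hairpin RNA. The agent is not described further. The degree and duration of the knockdowns and the number of clones are not given in the sources used here.

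Each condition had 1 deposited list of peaks. The lists held 2757 peaks in the control, 1730 in the U2AF1 knockdown and 4443 in the DHX9 knockdown, and their read depth is not given. With 1 list per condition there is no replicate error for any value below, and no difference between lists was tested. A gene without a peak in a list is a gene below the authors' threshold there, not a gene shown to be free of polymerase. Peaks mark where the authors called POLR2A ChIP signal above background, which alone does not prove binding at that place. They do not show how much mRNA or protein the cells held, so they are no check of the knockdowns. U2AF1 had start-site peaks in both knockdown lists, and DHX9 had one in all 3 lists. None of 7 blood, liver and muscle genes had a start-site peak in any list. Of all protein-coding genes 75.1% had none either, so this count cannot check the cell line label.

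These factors act at the step in which an intron's 3′ end is recognised. SF1 binds the branch point sequence, U2AF2 (U2AF65) the polypyrimidine tract and U2AF1 (U2AF35) the AG at the 3′ splice site. The U2 snRNP, a particle of RNA and protein, then takes the place of SF1 at the branch point with its SF3A and SF3B complexes. SF3A1, SF3A2 and SF3A3 make up SF3A, and SF3B1 is the largest subunit of SF3B. PUF60 is related to U2AF2 and binds pyrimidine tracts, RBM17 (SPF45) contacts SF3B1 and U2AF2 through its UHM domain, and ZRSR2 is the relative of U2AF1 that serves the minor class of introns. RNA polymerase II often accumulates just downstream of the start of active genes, so a peak at a start is the usual form of a POLR2A signal.

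The sequences that carry the main points are printed first, from the hg38 genome, 5′ to 3′ on the coding strand of the gene. The first set shows the 150 bases before the outermost annotated start of 4 genes: U2AF1, with start-site peaks in both knockdown lists, RBM17 and SF1, with high-ranking start-site peaks in the DHX9 knockdown list, and U2AF2, with no peak in any list. Capitals mark exact matches on either strand to the GC box (GGGCGG), to CCAAT or to the ETS-type motif CCGGAAG, which did not overlap each other here. The U2AF1 stretch is chr21:43107571-43107720 on the minus strand, and the U2AF1 knockdown peak covered 121 of its bases and the DHX9 knockdown peak 75. The RBM17 stretch is chr10:6088884-6089033 on the plus strand, with 45 bases inside the DHX9 knockdown peak. The SF1 stretch is chr11:64778787-64778936 on the minus strand and the U2AF2 stretch chr19:55653996-55654145 on the plus strand, and neither held a base of any peak. The canonical starts of SF1, chr11:64778542, and of U2AF2, chr19:55655035, lie downstream of the outermost ones. For these genes the stretch is thus not the one just before the canonical start.
U2AF1: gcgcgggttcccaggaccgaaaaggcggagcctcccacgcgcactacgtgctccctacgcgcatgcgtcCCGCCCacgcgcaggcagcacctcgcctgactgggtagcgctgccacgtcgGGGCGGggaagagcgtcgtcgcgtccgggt
RBM17: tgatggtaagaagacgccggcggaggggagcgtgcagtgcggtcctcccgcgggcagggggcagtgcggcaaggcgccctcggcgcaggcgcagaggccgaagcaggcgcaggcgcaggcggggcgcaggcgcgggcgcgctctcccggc
SF1: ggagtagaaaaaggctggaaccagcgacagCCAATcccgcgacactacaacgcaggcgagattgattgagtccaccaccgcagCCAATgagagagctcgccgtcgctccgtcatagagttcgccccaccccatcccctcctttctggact
U2AF2: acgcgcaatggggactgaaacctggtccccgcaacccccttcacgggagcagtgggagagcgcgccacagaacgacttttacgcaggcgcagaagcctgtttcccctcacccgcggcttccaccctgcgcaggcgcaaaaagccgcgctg

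The second set shows 80 bases of the U2AF1 coding sequence, coding bases 363 to 442 in exon 6, at the gene and at 3 other places in the genome that hold the same stretch. They are shown because peaks lay on each of these copies of the coding sequence, at U2AF1 itself under its exon 6. Capitals mark bases that differ from U2AF1. The gene has the stretch at chr21:43094695-43094774 on the minus strand, and a second copy of it lies at chr21:6486362-6486441 on the same strand. The processed pseudogenes, copies of the spliced coding sequence, hold it at chr15:35092837-35092916 and at chr11:72280834-72280913, both on the plus strand. The second copy had 0 differences, the chromosome 15 pseudogene 3 and the chromosome 11 pseudogene 5.
U2AF1 exon 6: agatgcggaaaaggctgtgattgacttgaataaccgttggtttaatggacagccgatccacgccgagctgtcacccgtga
second copy: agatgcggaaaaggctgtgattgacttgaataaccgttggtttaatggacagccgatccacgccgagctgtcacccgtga
pseudogene chromosome 15: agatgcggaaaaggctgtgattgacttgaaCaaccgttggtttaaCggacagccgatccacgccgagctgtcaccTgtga
pseudogene chromosome 11: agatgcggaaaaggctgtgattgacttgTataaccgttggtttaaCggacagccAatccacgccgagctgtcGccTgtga

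POLR2A peaks at the starts of these genes were spread over different genes in each list. In the control list, SF3A2 and PUF60 had a start-site peak, 2 of the 10 genes, where 12.6% of all protein-coding genes had one. In the U2AF1 knockdown list, U2AF1 and PUF60 had one, again 2 of 10, beside 6.65% of all protein-coding genes. In the DHX9 knockdown list, U2AF1, SF1, SF3A1 and RBM17 had one, 4 of 10, beside 21.0%. With peaks inside the gene body added, U2AF1 joined in the control list, which made 3 of 10 beside 13.2% of protein-coding genes. The counts stayed at 2 beside 7.35% in the U2AF1 knockdown list and at 4 beside 22.2% in the DHX9 knockdown list. All protein-coding genes include those that HEK293T cells do not use, and splicing factors are used in every cell, so the background is a frame for the counts and not a matched control.

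**Figure D1:**
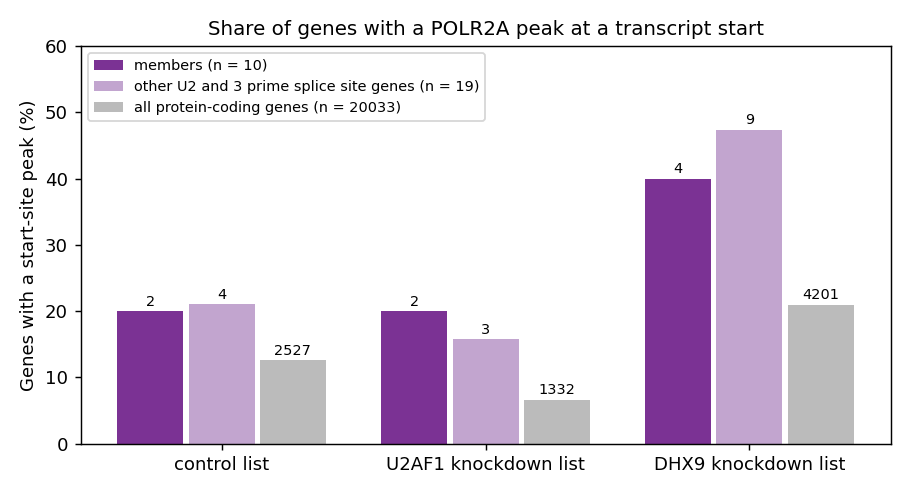
Share of genes with a POLR2A start-site peak (%, y axis) in each of the 3 peak lists, with the number of genes above each bar, for the 10 U2 and 3′ splice site factors, 19 further genes of the same machinery and all 20033 protein-coding genes. The share of the 10 factors was 20% in the control and U2AF1 knockdown lists and 40% in the DHX9 knockdown list, beside 12.6%, 6.65% and 21.0% of protein-coding genes.

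Over the 3 lists together, 6 of the 10 genes had a start-site peak at least once, and 4983 of the protein-coding genes, 24.9%, did so. Most belonged to 1 list only. SF1, SF3A1 and RBM17 had start-site peaks in the DHX9 knockdown list and no other, a pattern shared by 10.1% of protein-coding genes. SF3A2 had one in the control list only, as did 2.66%. U2AF1 had one in both knockdown lists and not in the control list, as did 1.38%. PUF60 had one in the control and U2AF1 knockdown lists and not in the DHX9 knockdown list, the pattern of 87 protein-coding genes or 0.434%. U2AF2, SF3B1, SF3A3 and ZRSR2 had none in any list, as 75.1% of protein-coding genes. No gene of the set had one in the U2AF1 knockdown list alone (0.809% of protein-coding genes) or in the control and DHX9 knockdown lists alone (5.49%). No gene of the set had a start-site peak in all 3 lists, where 807 protein-coding genes, 4.03%, did.

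Genes shared between lists were counted for each pair. The control and U2AF1 knockdown lists had 1 gene of the set in common, PUF60, which was 50% of the genes of each list, and 4.46% of protein-coding genes had start-site peaks in both. Those genes made up 35.4% of the protein-coding genes of the control list and 67.1% of those of the U2AF1 knockdown list. The U2AF1 and DHX9 knockdown lists had U2AF1 in common, 50% of the genes of the former and 25% of those of the latter, beside 5.41% of protein-coding genes. The control and DHX9 knockdown lists shared 0 genes of the set. Among protein-coding genes, 9.52% had start-site peaks in both of these lists, which was 75.5% of those in the control list and 45.4% of those in the DHX9 knockdown list.

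**Figure D2:**
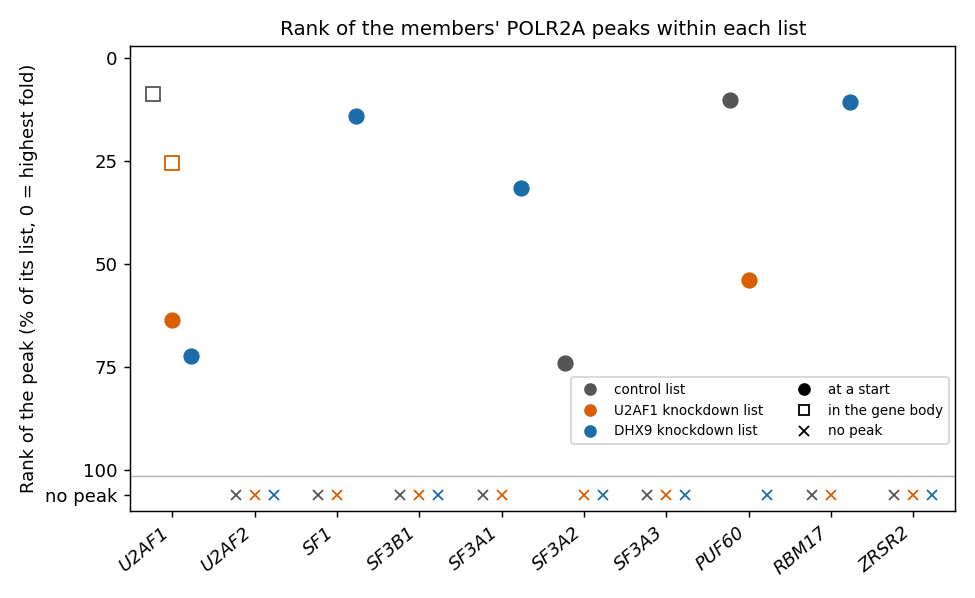
Rank of each POLR2A peak of the 10 genes (x axis) within its list, as a percent of the peaks in the list (y axis). The value 0, at the top, stands for the highest fold enrichment. Filled circles are peaks at a transcript start, open squares peaks in the gene body and crosses genes without a peak in that list. U2AF1 has both a circle and a square for the U2AF1 knockdown list. RBM17, PUF60 and SF1 had start-site peaks between 10.2% and 14.0% of a list, and U2AF2, SF3B1, SF3A3 and ZRSR2 had crosses in all 3.

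U2AF1, the subunit of U2AF that reads the AG and the target of one of the knockdowns, is ENSG00000160201.12 at chr21:43092956-43107570 on the minus strand. At its start there was no control peak. Under U2AF1 knockdown a peak lay at chr21:43107476-43107691, 216 bp wide, with its summit 2 bp downstream of the start. The authors' fold enrichment, their own ratio of signal to background, was 4.26, and the peak ranked 1100 of 1730. The DHX9 knockdown list had a peak at chr21:43107646-43107881, 236 bp wide, with its summit at −175 bp from the start, an authors' fold enrichment of 4.48 and rank 3210 of 4443. Both start-site peaks thus stood in the lower part of their lists, at 63.6% and 72.2%, where the median over protein-coding genes was 41.6% and 45.5%. The authors' deposited −log10 q was 2.70 for the former and 3.12 for the latter, against a lowest value of 1.30 and 1.31 in these lists. Of protein-coding genes ranked as high or higher, 9.74% of 1047 under U2AF1 knockdown and 42.9% of 3329 under DHX9 knockdown had a start-site peak in that list only, and U2AF1, with peaks in both, was in neither group.

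The peaks at the U2AF1 start did not lie on the same bases. Their summits were 177 bp apart and they shared 46 bases, the DHX9 knockdown peak lying upstream. Among 1061 pairs of overlapping peaks at starts of protein-coding genes in these lists, the median distance of the summits was 44 bp. The quartiles were 17 and 102 bp, and 136 of the pairs, 12.8%, were as far apart or farther. A lncRNA gene on the opposite strand, ENSG00000286549, starts 372 bp from the U2AF1 start. The 2 GC boxes in the printed U2AF1 stretch are among 4 in the 300-base RefSeq promoter.

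**Figure D3:**
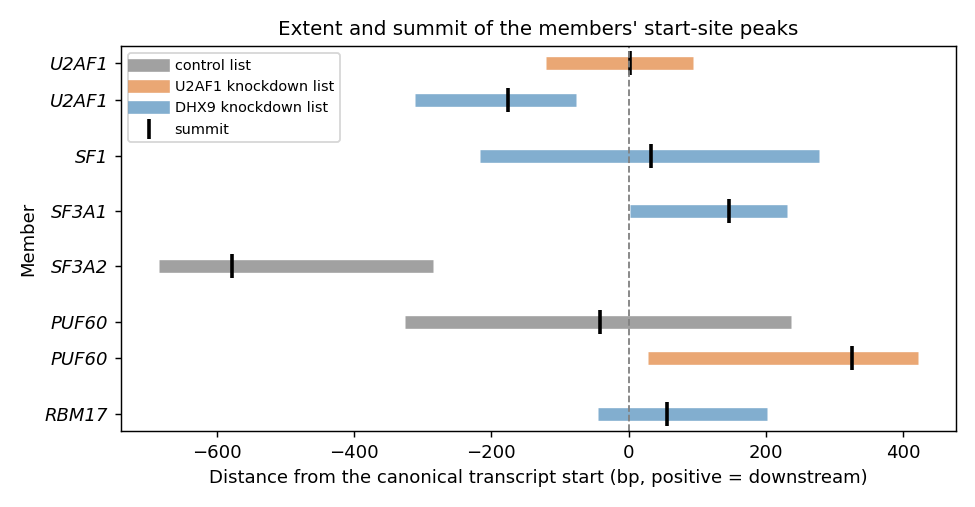
Extent (bars) and summits (black ticks) of the start-site peaks of 6 genes, in bp from the canonical transcript start (x axis, positive downstream), coloured by list. The SF3A2 peak lay wholly upstream with its summit at −577 bp, and the PUF60 summits of the control and U2AF1 knockdown lists were 367 bp apart.

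Inside the U2AF1 gene, the pattern over the lists was different. The control list had a peak at chr21:43094477-43094787 and the U2AF1 knockdown list one at chr21:43094480-43094790, both 311 bp wide. Their summits were 3 bp apart and they shared 308 bases. The peaks spanned most of coding exons 6 and 7, with the short intron between them, 12835 and 12838 bp downstream of the canonical start. A short transcript of U2AF1 starts nearer, 1208 and 1211 bp from these summits, just outside the window of 1000 bp. The control peak ranked 237 of 2757 (8.60%) with an authors' fold enrichment of 6.79. The U2AF1 knockdown peak ranked 442 of 1730 (25.5%) with 5.81, and in that list it stood above the start-site peak of the same gene. Ranked by the authors' deposited −log10 p, these exonic peaks stood at 14.6% and 44.1%. The DHX9 knockdown list had no peak there.

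The exonic peaks lay on sequence that U2AF1 shares with other places. The 311 bases under the control peak had 0 differences from chr21:6486144-6486454, in a second copy of the gene (ENSG00000275895) that GENCODE classes as an artifact. The control list had a peak on that copy at chr21:6486134-6486456, which ranked 137, and the U2AF1 knockdown list one at chr21:6486140-6486461, which ranked 134. The DHX9 knockdown list had none there either. At the exons, then, both copies had a peak in the control and U2AF1 knockdown lists and neither had one in the DHX9 knockdown list.

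In the reference sequence the start is duplicated too. The U2AF1 knockdown peak there differed by 1 base from chr21:6499154-6499369 and the DHX9 knockdown peak by 0 bases from chr21:6499324-6499559. On the second copy the DHX9 knockdown list had a further peak, at chr21:6499117-6499329, 213 bp wide, with rank 1820 and an authors' fold enrichment of 5.60. Carried over to the gene, its summit lay 47 bp downstream of the start, where the summit at U2AF1 itself was at −175 bp. The control and U2AF1 knockdown lists had no peak at the start of the second copy. With both copies counted, the start of U2AF1 still had a peak in both knockdown lists and none in the control list. With −log10 q of at least 5 neither knockdown list kept a start-site peak at U2AF1 itself, and the peak at the second copy in the DHX9 knockdown list, with an authors' deposited −log10 q of 5.59, was kept. With the 1730 peaks of lowest p-value taken from each list, the DHX9 knockdown list kept neither of its peaks. The U2AF1 knockdown list has 1730 peaks in all, so it was not cut and its peak stayed by construction. Reads from identical sequence cannot be placed from their bases, and how the authors treated such reads is not given in the sources used here, so the place, height and presence of each U2AF1 peak are uncertain between the copies.

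Beyond chromosome 21, the U2AF1 coding sequence of 720 bases, spread over 8 exons, has processed pseudogenes on chromosomes 15 and 11. The chromosome 15 copy (ENSG00000259397, chr15:35092481-35093209, 91.7% identical) held the highest or second-highest peak of every list. Its peak ranked 1 in the control, with an authors' fold enrichment of 60.4, 1 under U2AF1 knockdown with 112.5, and 2 under DHX9 knockdown with 83.3. These peaks covered about coding bases 82 to 720, 56 to 720 and 66 to 720 and had their summits near coding bases 369, 333 and 327, in exons 5 and 6. Peak positions on the pseudogenes were counted without regard to gaps in the alignment, so they are approximate and can be off by several bases. The exonic peaks at U2AF1 had their summits at coding bases 402 and 405, within the printed stretch, in which the pseudogene differs at 3 of 80 bases. At the gene itself, coding exons 2, 3, 4, 5 and 8 lay under no peak of any list, and the U2AF1 knockdown start-site peak reached into coding exon 1.

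On chromosome 11 the other pseudogene (ENSG00000213365, chr11:72280151-72281179, 90.5% identical) had peaks in the knockdown lists only. The U2AF1 knockdown peak ranked 25 of 1730, with an authors' fold enrichment of 16.1, and the DHX9 knockdown peak 118 of 4443, with 12.0. They covered about coding bases 1 to 248 and 25 to 240, the first 4 exons, which is a different part of the sequence from the exonic peaks. U2AF1L4, a related gene with 101 aligned bases at 83.2% identity, had no peak there. The number of reads that fit more than 1 of these places, and their part in the U2AF1 peaks, was not tested.

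**Figure D4:**
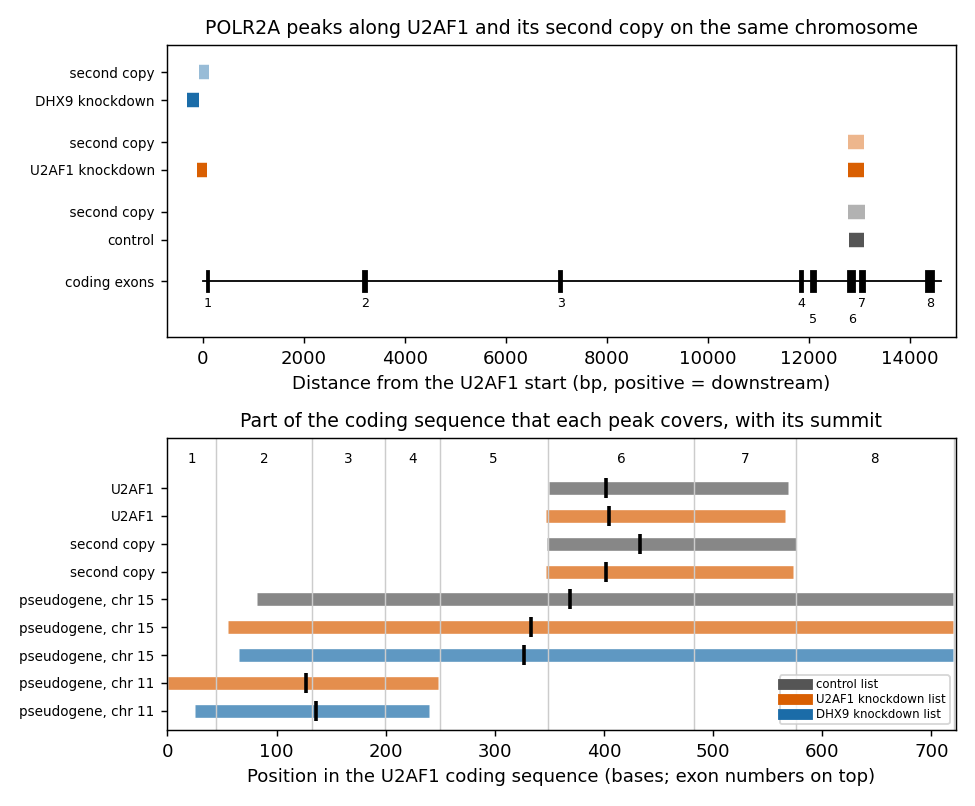
POLR2A peaks along U2AF1 and its second copy on chromosome 21 (upper panel, x axis in bp from the U2AF1 start, exons numbered, the paler bar above each list being the second copy), and the part of the U2AF1 coding sequence under each peak at the gene and its copies (lower panel, x axis in coding bases, black ticks at summits). The control and U2AF1 knockdown lists had bars at exons 6 and 7 in both chromosome 21 copies, the DHX9 knockdown list had bars only near the start, and the chromosome 15 pseudogene was covered almost whole in all 3 lists. Positions on the pseudogenes ignore gaps in the alignment and are approximate.

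SF1, the branch point binding protein, is ENSG00000168066.22 at chr11:64764606-64778786 on the minus strand. It had no peak in the control list, where the nearest summit was 100131 bp away, and none in the U2AF1 knockdown list, where it was 391499 bp away. In the DHX9 knockdown list it had a peak at chr11:64778264-64778758 with rank 620 of 4443 (14.0%) and an authors' fold enrichment of 7.45. At 495 bp it was wider than 80.9% of the peaks of that list. Its summit was at −2 bp from the nearest SF1 start, 33 bp downstream of the canonical one, in untranslated exon sequence. The lncRNA SF1-DT starts on the opposite strand, 168 bp away at the nearest and 412 bp from the canonical start. Of 593 protein-coding genes with a start-site peak ranked as high or higher in the DHX9 knockdown list, 78.6% also had one in the control list and 58.0% in the U2AF1 knockdown list. SF1 was among the 94 of them, 15.9%, with none in either.

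RBM17, the U2-associated splicing factor, is ENSG00000134453.16 at chr10:6089034-6117457 on the plus strand, and it had the highest start-site peak of the set in the DHX9 knockdown list. That peak lay at chr10:6088989-6089235, 247 bp wide, and ranked 471 (10.6%) with an authors' fold enrichment of 7.92 and an authors' deposited −log10 q of 12.5. Its summit was 19 bp downstream of the nearest start and 56 bp downstream of the canonical one, in untranslated exon sequence. GC bases made up 82.6% of the peak. The control list had its nearest summit 88829 bp from RBM17 and the U2AF1 knockdown list 198719 bp. Of 435 protein-coding genes with a start-site peak of that rank or higher in the DHX9 knockdown list, 85.3% had one in the control list too, and RBM17 was one of 46, 10.6%, with none in either of the other lists.

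PUF60, the relative of U2AF2, is ENSG00000179950.15 at chr8:143816344-143830709 on the minus strand, and it was the only gene of the set with start-site peaks in the control list and in the U2AF1 knockdown list. In the control list its peak at chr8:143829078-143829641 was 564 bp wide and ranked 280 of 2757 (10.2%), with an authors' fold enrichment of 6.45. In the U2AF1 knockdown list its peak at chr8:143828894-143829287 was 394 bp wide and ranked 930 of 1730 (53.8%), with 4.58. Both were wide for their lists, wider than 88.4% and 77.0% of the peaks. The control summit was at −41 bp from the canonical start and the U2AF1 knockdown summit 326 bp downstream of it. PUF60 has 28 distinct annotated transcript starts, and against the nearest of these the summits were at −4 and 37 bp.

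The PUF60 peaks shared 210 bases, and their summits were 367 bp apart. Over 884 pairs of overlapping peaks at starts of protein-coding genes in these lists, the median was 35 bp, with quartiles at 13 and 85 bp. Of these pairs 28, or 3.17%, had summits that far apart or farther. A lncRNA on the opposite strand, ENSG00000287222, starts 149 bp from the nearest PUF60 start and 203 bp from the canonical one.

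PUF60 had no peak in the DHX9 knockdown list, the longest of the 3, where the nearest summit was 30556 bp away. Of the 218 protein-coding genes with a control start-site peak ranked as high as that of PUF60 or higher, 203, 93.1%, also had a start-site peak in the DHX9 knockdown list. In the U2AF1 knockdown list 162 of them, 74.3%, had one. The genes without one in either list numbered 9, 4.13%. Of the 905 genes ranked as high as PUF60 or higher under U2AF1 knockdown, 71.7% had a control start-site peak, as PUF60 did, 85.0% had one in the DHX9 knockdown list, and 8.95% had neither.

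Of the SF3A complex, which joins the U2 snRNP ahead of its binding to the branch point, 2 of 3 subunits had a start-site peak, each in a different list. SF3A1 is ENSG00000099995.19 at chr22:30331988-30356919 on the minus strand. Its peak in the DHX9 knockdown list, at chr22:30356663-30356892, was 230 bp wide and ranked 1399 (31.5%) with an authors' fold enrichment of 6.06. The summit lay in coding exon 1, 137 bp downstream of the nearest SF3A1 start and 112 bp from a start of CCDC157, so the peak could be counted for either gene. CCDC157, a protein-coding gene on the opposite strand, starts 82 bp from SF3A1 at the nearest and 113 bp from its canonical start. The control list had its nearest summit 759418 bp from SF3A1 and the U2AF1 knockdown list 759453 bp. Of 1460 protein-coding genes with a start-site peak ranked as high or higher in the DHX9 knockdown list, 378, 25.9%, had none in the other lists.

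SF3A2 is ENSG00000104897.10 at chr19:2236824-2248655 on the plus strand, and its control peak was the one farthest from a start among the start-site peaks of the set. The peak at chr19:2236140-2236539 was 400 bp wide and ranked 2044 of 2757 (74.1%) with an authors' fold enrichment of 3.41. Its summit was at −577 bp from the SF3A2 start, outside the gene. The same summit was at −8 bp from a start of PLEKHJ1, a protein-coding gene on the opposite strand, so the peak lay at the PLEKHJ1 start and counted for SF3A2 through the window. MIR6789 also starts within the window, 898 bp from SF3A2. The nearest summits of the other lists were 72797 bp away in the U2AF1 knockdown and 24068 bp away in the DHX9 knockdown. Of 2084 protein-coding genes with a control start-site peak ranked as high or higher, 19.8% had none in the other lists. Without this peak the control list held 1 gene of the set, PUF60, as it did with a window of 500 bp.

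SF3A3 (ENSG00000183431.12, chr1:37956975-37990075, minus strand), the remaining SF3A subunit, had no peak in any list, and neither did SF3B1 (ENSG00000115524.17, chr2:197388515-197435079, minus strand), the SF3B subunit that clasps the branch point adenosine. U2AF2 (ENSG00000063244.14, chr19:55654146-55674716, plus strand), the partner of U2AF1, and ZRSR2 (ENSG00000169249.14, chrX:15790156-15830694, plus strand) had none either. For U2AF2 the nearest summit was 246409 bp away in the control, 246416 bp in the U2AF1 knockdown and 246398 bp in the DHX9 knockdown list. For SF3A3 it was 100868, 1798828 and 100853 bp, and for ZRSR2 975502, 923581 and 975495 bp, in the same order. For SF3B1 it was 1221890, 64715 and 82433 bp. No peak of any list was therefore near the edge of the window at these 4 genes.

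The ranks of the start-site peaks were compared with those of all protein-coding genes within each list. In the control list the set ranged from 10.2% to 74.1% with a median of 42.1% (2 peaks), beside a median of 45.8% for protein-coding genes. In the U2AF1 knockdown list it ranged from 53.8% to 63.6% with a median of 58.7% (2 peaks), beside 41.6%. In the DHX9 knockdown list it ranged from 10.6% to 72.2% with a median of 22.7% (4 peaks), beside 45.5%. Higher ranks have lower percentages, so in the DHX9 knockdown list 3 of the 4 peaks, those of RBM17, SF1 and SF3A1, stood above the protein-coding median, and in the U2AF1 knockdown list neither did. Summits of 5 of the 8 start-site peaks lay within 37 bp of an annotated start. The median signed offset of protein-coding genes was 18, 28 and 14 bp in the 3 lists. Its quartiles were −100 and 56, −48.5 and 74, and −85 and 60 bp. Upstream and downstream summits cancel in such a median, so it is not a usual distance from a start.

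The wider machinery was described by 19 further genes: SF3B2, SF3B3, SF3B4, SF3B5, SF3B6 and PHF5A of SF3B, SNRPA1 and SNRPB2 of the U2 snRNP core, and U2SURP, CHERP, DDX46, DHX15, HTATSF1, SUGP1, RBM39, U2AF1L4, DDX39B, RBM5 and RBM10, which associate with U2 or act at the 3′ splice site. The control list had start-site peaks at 4 of them (21.1%), the U2AF1 knockdown list at 3 (15.8%) and the DHX9 knockdown list at 9 (47.4%). As with SF1, SF3A1 and RBM17, a start-site peak in the DHX9 knockdown list only was found at SF3B2, SF3B4, SF3B5, SNRPA1 and CHERP. RBM10 had one in the control list only, and RBM39 and SUGP1 had one in all 3 lists, which no gene of the set did. For SUGP1 the peak in the U2AF1 knockdown list had its summit nearer to the start of another gene, MAU2.

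RBM39, a U2AF2-like protein, ranked 559 (20.3%) in the control, 129 (7.46%) under U2AF1 knockdown and 3840 (86.4%) under DHX9 knockdown, with summits at −29, 4 and −67 bp from a start. SUGP1, which binds SF3B1, ranked 2274, 1211 and 3173, and all 3 of its peaks stood in the lower part of their lists, at 82.5%, 70.0% and 71.4%. Its U2AF1 knockdown summit was at −300 bp from a SUGP1 start and −20 bp from a start of the protein-coding gene MAU2. RBM10 ranked 1683 (61.0%) in the control list. That summit was at −346 bp from the RBM10 start and −165 bp from a start of the protein-coding gene NDUFB11. CHERP ranked 3756 (84.5%) in the DHX9 knockdown list, with its summit at −242 bp from its start and −67 bp from that of a lncRNA. These peaks of SUGP1, RBM10 and CHERP could thus be counted for either gene. The median rank of the start-site peaks of these 19 genes was 65.5% (control), 63.4% (U2AF1 knockdown) and 71.4% (DHX9 knockdown). In the last of these lists the median was lower in rank than the 22.7% of the 10 genes. Those medians rest on 9 and 4 peaks, and the ranges overlapped, from 15.2% to 86.4% and from 10.6% to 72.2%.

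The base composition of the first 500 transcribed bases, which bears on R-loops because G-rich transcripts favour them, was computed for 9 genes from the canonical start. PUF60 was not included in the comparisons of base composition and motifs. SF1 had the highest GC content, 80.8%, above 98.3% of protein-coding genes, and an excess of C over G on the coding strand, with a skew (G minus C over G plus C) of −0.168, above 5.06% of genes. RBM17 had 75.4% GC and a skew of −0.05. U2AF1 had 74.0% GC with a skew of 0.178, and SF3A2 65.2% with 0.117. SF3A1 had 62.6% GC and a skew of 0.00319. The genes with a start-site peak thus held both signs of skew, and GC contents from 62.6% to 80.8%. SF3A2 is among them only through the window, its peak lying at the PLEKHJ1 start, and neither statement depends on it.

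Among the genes without a peak, ZRSR2 had the highest skew of the 9, 0.199, above 88.8% of protein-coding genes, at 57.4% GC. U2AF2 had 67.2% GC, SF3A3 58.6% and SF3B1 54.6%, with skews of 0.0179, 0.00341 and 0.0183. Over protein-coding genes with a start-site peak in any list the median GC content was 69.2% and the median skew 0.0677, beside 61.8% and 0.0480 over those without.

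**Figure D5:**
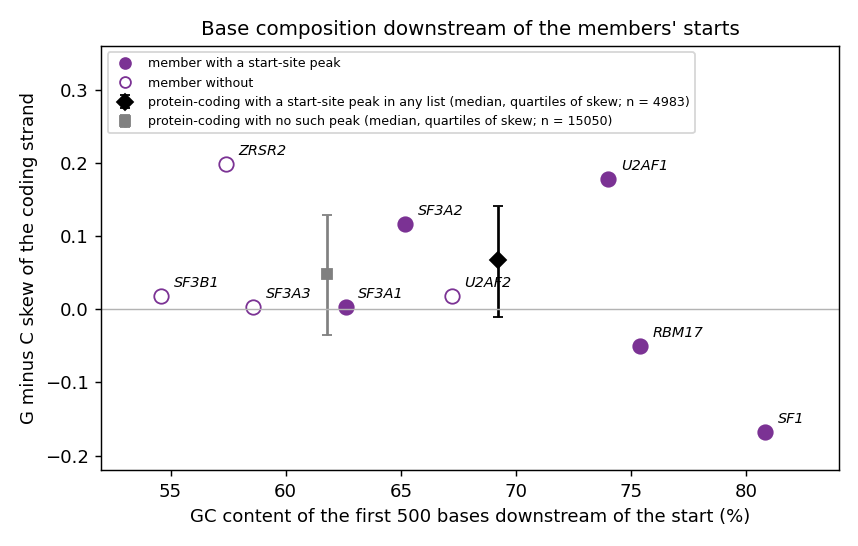
GC content (%, x axis) and skew of G over C (y axis) in the first 500 bases downstream of the canonical start of 9 genes, filled where the gene had a start-site peak in any list, with the medians of protein-coding genes with and without a start-site peak and the quartiles of their skew as bars. SF1 and RBM17, with high-ranking peaks in the DHX9 knockdown list, lay below 0, and ZRSR2, with no peak, had the highest skew, 0.199. SF3A2 is filled for a peak that lay at the PLEKHJ1 start.

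Exact motif matches were searched on both strands in 300-base RefSeq promoters (GRCh38.p14, 250 bases before to 50 after the start) of 9 genes and of 15843 protein-coding genes. The GC box GGGCGG was found in 7 of the 9, all but SF3B1 and RBM17, and in 58.5% of protein-coding promoters. U2AF2, without a peak, had the most GC boxes, 7. The RefSeq windows of U2AF2 and SF1 belong to a start downstream of the outermost one, so they do not hold the whole printed stretches. CCAAT was found in SF1 alone, with 3 matches, and in 36.4% of protein-coding promoters. The ETS-type motif CCGGAAG was found in U2AF2, SF3A1, SF3A2 and SF3A3 and in 14.2% of protein-coding promoters. The YY1 motif was found in SF3A1 and in 1.37%. The NRF1 motif and TATAAA were found in none of the 9, beside 1.75% and 9.63%. A match describes the letters of these windows and shows no binding.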

How the data were processed

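POLR2A ChIP-seq of HEK293T cells was used as 3 deposited narrowPeak lists, 1 per condition. Per the submitters' processing notes, Bowtie2 2.4.5, MACS2 2.2.7.1, deepTools 3.5.1 and the build hg38 were named, with no parameters or roles. Whether the replicates were pooled is not stated: peak names of the control list end in a suffix for 1 replicate, and those of the other lists do not. The authors deposited a fold enrichment per peak, a linear ratio, used here only within its list, and the −log10 of a p-value and of a q-value per peak. The authors also deposited the summit as a distance from the peak's start. 

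Summits were assigned to genes of GENCODE version 44 by the nearest transcript start of each gene, and 0 peaks lay beyond their sequence in the reference. A start-site peak had its summit within 1000 bp of a start. Ranks follow the fold enrichment within a list. Copies were found with BLAST 2.17.0+ over at least 100 bases at 80% identity for coding sequences, and 50 bases at 90% for peaks. Offsets are positive downstream. Python 3.11.15, pandas 2.3.3 and pysam 0.24.0 were used, and the assignment was checked on simulated data.

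The genes and lists were chosen with earlier results of these data known. All 10 genes are named. Of the 19 further genes, those with a start-site peak in all 3 lists or in 1 list are named, at most 4 with values, by rank in the control list and then by name. Neighbours that start within 1000 bp of a gene are named. No test was made. The alternatives were windows of 500 and 2000 bp, −log10 q of at least 5, lists of equal length, ranking by −log10 p, other overlap rules, protein-coding starts and peak edges in place of summits. A further marker list of the cell line check is not reported here.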

Additional observations from a re-analysis of the deposited data

How the results depend on the processing

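Each condition had 1 list, so the counts carry no replicate error, and list length and unknown depth limit what a missing peak can say. No paired analysis was possible because replicates were not listed apart, and for that reason none could be left out. Of the alternative values of the counts, 54 equalled the reported value, 8 differed from it by at most 1.5 times and 16 by more. Some of the equal values were fixed in advance. Lists of equal length leave the U2AF1 knockdown list, the shortest, uncut, and a count of 0 cannot fall under a stricter rule. With a window of 500 bp the control count of start-site genes was 1. With 2000 bp the exonic U2AF1 peaks count as start-site peaks by the window's own construction. The control and U2AF1 knockdown lists then shared 2 genes, 2 with overlapping peaks, and the control and DHX9 knockdown lists 1. With −log10 q of at least 5 (1965, 1032 and 2846 peaks) the start-site count was 1 in the control and 0 in the U2AF1 knockdown list, the count with any peak in the latter was 1, and the control and U2AF1 knockdown lists shared 0 genes, as did the 2 knockdown lists, with 0 overlaps in each pair. With 1730 peaks from each list the control count was 1 and the knockdown lists shared 0 genes, with 0 overlaps. Under both of these settings SF1, SF3A1 and RBM17 remained in the DHX9 knockdown list and U2AF1 did not. With summits within 250 bp as the rule, 0 genes overlapped between the control and U2AF1 knockdown lists, and with 50% of the shorter peak 0 between the knockdown lists. Of single values, 5 were equal, 3 ranks stayed within the 95% binomial interval of the reported one, 22 moved and 1 reversed: with protein-coding starts only, the SF1 summit lay 12 bp downstream. Ranked by −log10 p, PUF60 stood at 23.5% in the control and 76.8% in the U2AF1 knockdown list, and SF1 and RBM17 at 21.8% and 14.8% in the DHX9 knockdown list.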

Other observations

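The copies of U2AF1 were compared with those of the other 9 genes. Their coding sequences had 10 further copies of at least 100 bases at 80% identity or more: 5 of RBM17, 2 of SF3A3, 2 of ZRSR2 and 1 of SF3A2. Some are as close to their gene as the U2AF1 pseudogenes are to theirs, such as SF3A3P2 at 94.6% and RBM17P4 at 92.0%. None of the 10 had a peak on its aligned stretch in any list. The 4 U2AF1 copies include the one on chromosome 21 that GENCODE classes as an artifact. Of these 4, 3 had a peak under U2AF1 knockdown, 2 under DHX9 knockdown and 2 without a knockdown. These counts leave out the DHX9 knockdown peak at the start of the second copy on chromosome 21. The aligned stretch of that copy began at coding base 245 and did not reach its start. The sequences under the peaks of SF1, SF3A1, SF3A2, PUF60 and RBM17 matched 0 other places of the genome over 50 bases at 90% identity, so the uncertainty over read placement that touches U2AF1 does not touch these peaks at that threshold.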
